A study of Mus musculus with 12 samples.

Results

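The methionine cycle and transsulfuration genes are 10 genes taken by name (Mat1a, Mat2a, Mat2b, Gnmt, Ahcy, Bhmt, Bhmt2, Mtr, Cbs and Cth) out of 21807 gene IDs in the count tables, and all 10 were found and passed the filter on low counts. They were followed across 12 bulk liver RNA libraries of C57BL/6J mice in 4 groups of 3. NICD1/Akt livers were taken 2 weeks (libraries 33, 34 and 35) and 3 weeks (libraries 1, 2 and 3) after hydrodynamic tail vein injection (HTVi), a rapid injection that carries plasmids into hepatocytes, of plasmids for NICD1, the active intracellular part of Notch1, myr-AKT, a membrane-bound form of Akt, and the Sleeping Beauty transposase, which inserts both into the genome. Livers labelled WT served as controls of the early (libraries 30, 31 and 32) and late stage (libraries 10, 11 and 12). Mice were injected at an age of 5 weeks and are given as male in the methods. The growth protocol in the labels describes the controls as mice with no HTVi, whereas another label field dates WT samples too from an HTVi. If the controls had none, the injection and the transgenes cannot be told apart. Each comparison sets tissue labelled as cholangiocarcinoma (CCA) tumor against normal liver. In such bulk tissue, fewer cells of a type and less RNA per cell cannot be told apart. Whether the 3 libraries of a group stem from different mice is not given in the sources used here, and the spread behind each p-value may be technical.

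In the methionine cycle, methionine is turned into S-adenosylmethionine, the donor of most methyl groups in the cell, and each methyl transfer leaves S-adenosylhomocysteine, which is split to homocysteine. Homocysteine either takes up a new methyl group to become methionine again or leaves the cycle through transsulfuration, which makes cysteine. Normal hepatocytes use the synthetase isoform encoded by Mat1a, whereas most other cells, fetal liver and many liver tumors use that of Mat2a, whose activity is tuned by the regulatory subunit encoded by Mat2b.

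Levels are given as CPM, read counts scaled to a common library size, with TMM scaling over all 12 libraries, and tests are from edgeR's quasi-likelihood method with Benjamini-Hochberg adjustment over all genes tested. A gene was called at an adjusted p under 0.05. Gene counts summed to between 13136892 and 19594839 per library. The tissue labels were checked with fixed marker lists. At 3 weeks all 10 hepatocyte markers were lower (summed level 37837 to 52559 CPM in NICD1/Akt livers, against 143103 to 145788 CPM in controls), and the 7 testable cholangiocyte markers of 8 were all higher (3501 to 4121 CPM, against 92.9 to 135 CPM). Stellate cell and fibroblast markers were higher in 5 of 7 cases, macrophage and Kupffer cell markers higher in 4 and lower in 3 of 7, and all 3 erythroid markers were lower (47.5 to 84.2 CPM, against 184 to 203 CPM), with their part in the results not tested. Of 5 endothelial markers 1 was higher and 1 lower, the 1 testable lymphocyte marker of 5 was not called, and no marker of any list was at 0 in all libraries. At 2 weeks no marker was called. The hepatocyte list summed to 162011, 173526 and 75507 CPM in NICD1/Akt libraries 33, 34 and 35, against 193100, 191703 and 125950 CPM in control libraries 30, 31 and 32, and the cholangiocyte list to 1184.5, 1375 and 4738 CPM, against 87.6, 89.4 and 2046 CPM. The control library 32 thus went against its label, as it also did with 106 CPM of Notch1 and 381 CPM of Akt1, the genes of the plasmids, against at most 53.8 and 90.9 CPM in libraries 30 and 31. It also had 57.2 CPM of the Y-linked gene Ddx3y, which did not exceed 0.398 CPM in the remaining 5 libraries of 2 weeks and reached 52.2 to 126 CPM at 3 weeks. Library 32 is kept in its labelled group, and results of 2 weeks are given with and without it. The low Ddx3y of those 5 libraries goes against the male sex given in the methods, and the sex read from Ddx3y cannot be told apart from the stage.

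At 3 weeks, 7 of the 10 genes were lower in NICD1/Akt livers than in controls, 2 were higher and 1, Mat2a, was not called. The falls were deepest in Gnmt, Cth and Bhmt, which were 4.20-, 3.92- and 3.64-fold lower, while Mat1a was 2.00-fold lower and Cbs 1.31-fold lower. Mat2b and Mtr were 1.68- and 1.42-fold higher. Many other genes moved too: of 13408 genes tested, 33.1% were called lower and 38.9% higher. The median log2 fold change was -1.24 over the 10 genes and 0.06 over all genes. In the 7 lower genes every NICD1/Akt library lay below every control, which held for 35.5% of all genes, and in the 2 higher genes every NICD1/Akt library lay above, which held for 41.3%.

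**Figure D1:**
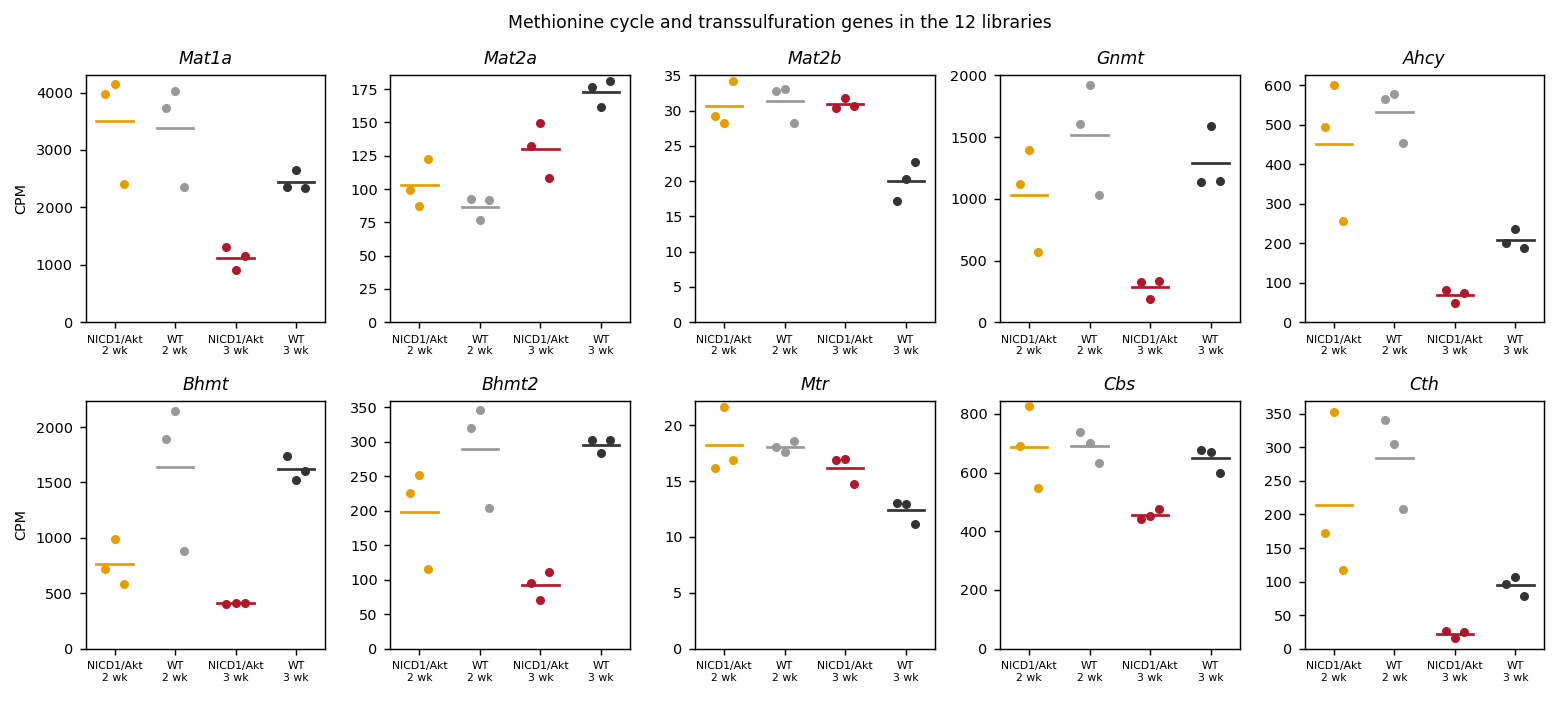
CPM of the 10 genes (y axes, linear from 0, a scale for each gene) in the 12 libraries, as points by group with the mean of the 3 libraries as a line. In the 2 groups of 3 weeks, 7 of the 10 genes were called lower in NICD1/Akt livers. Mat2a also lies lower with this scaling but was not called. Mat2b and Mtr lie higher, with controls of 3 weeks below those of 2 weeks for both.

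The genes of S-adenosylmethionine synthesis did not move together at 3 weeks. Mat1a (ENSMUSG00000037798.8), the hepatocyte synthetase, stood at 1304, 908 and 1162 CPM in NICD1/Akt livers of 3 weeks, against 2360, 2651 and 2332 CPM in the controls of that stage. The groups did not overlap, and all 3 NICD1/Akt libraries lay below the lowest of the other 9 libraries (log2 fold change -1.0, SE 0.17, adjusted p = 0.00073). With library size only as scaling, which moved the median of all genes by 0.705 on the log2 scale, the fold change of Mat1a was -0.30 and its call was lost (adjusted p = 0.0649). At 2 weeks Mat1a stood at 3968, 4152 and 2409 CPM in NICD1/Akt livers and at 3731, 4034 and 2360 CPM in controls. The low value of each group belonged to libraries 35 and 32, those with the lowest hepatocyte marker sums, and the groups overlapped throughout (log2 fold change 0.06, SE 0.36, adjusted p = 0.939).

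Mat2a (ENSMUSG00000053907.11), the synthetase of most other tissues, had 132, 150 and 108 CPM in NICD1/Akt livers of 3 weeks, against 177, 162 and 181 CPM in controls. These ranges were apart with scaling over 12 libraries but overlapped with scaling over the 6 libraries of the stage, and the test did not call the gene (log2 fold change -0.29, SE 0.13, adjusted p = 0.0737). Its direction depended on the scaling, since library size only turned it to 0.42 (adjusted p = 0.0307), and it was called lower with all 12 libraries fitted together (-0.41, adjusted p = 0.0346) and without NICD1/Akt library 2 (-0.42, adjusted p = 0.0108). At 2 weeks Mat2a stood at 99.4, 87.1 and 123 CPM in NICD1/Akt livers and at 92.4, 76.6 and 91.7 CPM in controls, with overlap (log2 fold change 0.26, SE 0.17, adjusted p = 0.540). With scaling over 12 libraries, the highest level of Mat2a was in the controls of 3 weeks, and all 3 of them lay above the other 9 libraries. In these controls it was 1.99-fold higher than in the controls of 2 weeks (log2 difference 0.99, SE 0.16, adjusted p = 0.000768). Against all 6 controls the log2 fold change of Mat2a at 3 weeks was 0.00 (adjusted p = 1.0).

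Mat2b (ENSMUSG00000042032.14), the regulatory subunit, stood at 30.3, 31.8 and 30.7 CPM in NICD1/Akt livers of 3 weeks, against 17.2, 20.3 and 22.7 CPM in controls. The groups were apart (log2 fold change 0.74, SE 0.11, adjusted p = 0.000457). The level in NICD1/Akt livers at 2 weeks was 29.3, 28.3 and 34.3 CPM, against 32.8, 33.1 and 28.2 CPM in controls of 2 weeks. Those 9 libraries thus spanned 28.2 to 34.3 CPM, and the controls of 3 weeks stood below all of them (3 over 2 weeks in controls, log2 difference -0.65, SE 0.12, adjusted p = 0.00232). Set against all 6 controls in place of the 3 of its stage, the rise of Mat2b was not called (log2 fold change 0.27, adjusted p = 0.316), nor was it against the 5 controls without library 32 (0.44, adjusted p = 0.117).

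The balance of the synthetase genes was also taken within each library, where scaling plays no part. At 3 weeks there were 9.87, 6.07 and 10.8 reads of Mat1a per read of Mat2a in NICD1/Akt livers, against 13.3, 16.4 and 12.9 in controls. All NICD1/Akt ratios lay below all control ratios, with means of 3.11 ± 0.45 and 3.82 ± 0.19 on the log2 scale (SD, n = 3 each, difference -0.71). The exact two-sided permutation test gave p = 0.1, the smallest that 3 against 3 libraries allow (adjusted over 6 ratio tests, 0.2). At 2 weeks the ratio was 39.9, 47.7 and 19.6 in NICD1/Akt livers and 40.4, 52.7 and 25.7 in controls, overlapping and above every library of 3 weeks (difference -0.18, exact permutation p = 0.6). Over both stages, with libraries exchanged within a stage, the difference was -0.45 (exact permutation p = 0.145, adjusted 0.217, smallest possible 0.005).

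For Mat1a per read of Mat2b the values at 3 weeks were 43, 28.6 and 37.9 in NICD1/Akt livers, against 138, 131 and 103 in controls. The ranges were far apart, with means of 5.17 ± 0.30 and 6.94 ± 0.22 on the log2 scale (SD, n = 3 each, difference -1.77, exact permutation p = 0.1, adjusted 0.2). At 2 weeks they were 135, 147 and 70.3 in NICD1/Akt livers, against 114, 122 and 83.7 in controls, with overlap (difference 0.09, exact permutation p = 0.7). Per kilobase of exon, Mat1a stayed the most abundant synthetase RNA in all 12 libraries, with 7.85 to 13.9 times the level of Mat2a in NICD1/Akt livers at 3 weeks and 16.7 to 21.2 times in controls of that stage. The read ratio of Mat2a to Mat2b was 3.52 to 4.71 in NICD1/Akt livers of 3 weeks, against 7.97 to 10.3 in controls, and 3.08 to 3.58 in NICD1/Akt livers of 2 weeks, against 2.31 to 3.25 in controls. Here too the controls of 3 weeks were the group that stood away from the other 9 libraries.

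**Figure D2:**
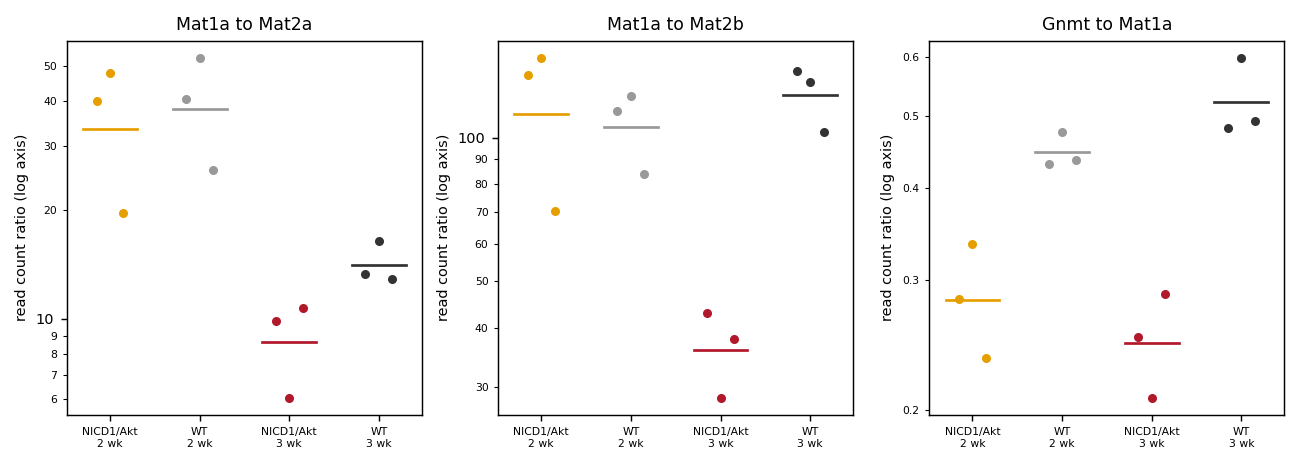
Read count ratio within each library (y axes, log scale) of Mat1a to Mat2a, Mat1a to Mat2b and Gnmt to Mat1a, as points by group with the geometric mean as a line. At 3 weeks the ratio of Mat1a to Mat2b lies at 28.6 to 43 in NICD1/Akt livers and at 103 to 138 in controls, and the ratio of Gnmt to Mat1a is lower in NICD1/Akt livers at both stages.

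The sequence just before the RefSeq start site is shown for Mat2a, which was not called, Gnmt, which fell most, and the paralogs Bhmt and Bhmt2, which fell together. RefSeq promoter sequences (GRCm38.p6) were matched for 8 of the 10 genes, and those of Mat1a and Cth are not shown. In the lines below, the 250 bases up to the start site are written from 5′ to 3′ on the strand of the gene, and capitals mark any of 5 motifs searched on both strands (the TATA box, TATAAA, the GC box, GGGCGG, an E-box, CACGTG, and the longer TGATGCAA and TTGCGCAA).
Mat2a promoter (GRCm38.p6, chr6:72439557-72439806, minus strand): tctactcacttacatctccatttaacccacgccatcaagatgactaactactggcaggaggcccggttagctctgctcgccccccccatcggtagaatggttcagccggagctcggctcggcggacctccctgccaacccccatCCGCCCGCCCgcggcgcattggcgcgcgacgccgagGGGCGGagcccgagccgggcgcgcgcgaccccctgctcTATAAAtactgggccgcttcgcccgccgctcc
Gnmt promoter (GRCm38.p6, chr17:46729166-46729415, minus strand): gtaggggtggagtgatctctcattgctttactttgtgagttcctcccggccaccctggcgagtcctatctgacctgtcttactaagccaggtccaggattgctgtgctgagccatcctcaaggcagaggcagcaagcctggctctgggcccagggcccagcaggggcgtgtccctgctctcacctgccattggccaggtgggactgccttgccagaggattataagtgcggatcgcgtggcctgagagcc
Bhmt promoter (GRCm38.p6, chr13:93637759-93638008, minus strand): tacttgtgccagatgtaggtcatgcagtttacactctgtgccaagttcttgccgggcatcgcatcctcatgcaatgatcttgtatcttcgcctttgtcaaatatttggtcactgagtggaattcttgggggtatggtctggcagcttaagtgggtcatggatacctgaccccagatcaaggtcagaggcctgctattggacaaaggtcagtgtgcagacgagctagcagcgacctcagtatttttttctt
Bhmt2 promoter (GRCm38.p6, chr13:93674303-93674552, minus strand): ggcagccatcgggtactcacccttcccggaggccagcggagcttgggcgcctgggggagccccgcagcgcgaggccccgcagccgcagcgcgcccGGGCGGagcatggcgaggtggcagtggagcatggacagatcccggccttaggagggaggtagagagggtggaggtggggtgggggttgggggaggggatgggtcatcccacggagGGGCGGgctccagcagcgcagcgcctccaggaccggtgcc
Mat2a held TATAAA starting 32 bases before the start site, and GGGCGG at 3 places of which 2 overlap each other on the opposite strand (CCGCCC). Bhmt2 held GGGCGG at 2 places, and Gnmt and Bhmt held none of the 5 motifs. In the window from 250 bases before to 50 bases after the start, GGGCGG was found in 6 of the 8 genes (Mat2a, Mat2b, Bhmt2, Ahcy, Cbs and Mtr) and in 35.7% of 32851 promoters. The 6 genes with it include 3 that fell at 3 weeks and 3 that did not, and both genes without it fell. TATAAA was found in 1 of the 8 genes and in 13.6% of all promoters, CACGTG in 1 (Cbs) and in 7.15%, TGATGCAA in none and in 0.895%, and TTGCGCAA in none and in 0.183%.

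Gnmt and Ahcy, which act on S-adenosylmethionine and on its product, both fell at 3 weeks. Gnmt (ENSMUSG00000002769.10), which spends surplus methyl groups on glycine and is one of the most abundant methyltransferases of liver, stood at 327, 189 and 333 CPM in NICD1/Akt livers of 3 weeks, against 1137, 1589 and 1147 CPM in controls. The groups were far apart (log2 fold change -2.07, SE 0.25, adjusted p = 0.000112). At 2 weeks it stood at 1120, 1395 and 567 CPM in NICD1/Akt livers, against 1607, 1921 and 1029 CPM in controls, with overlap only through control library 32 (log2 fold change -0.56, SE 0.40, adjusted p = 0.556). Relative to Mat1a in the same library, Gnmt was lower at both stages: 0.235 to 0.336 reads per read of Mat1a in NICD1/Akt livers at 2 weeks, against 0.431 to 0.476 in controls with library 32 included, and 0.208 to 0.287 in those of 3 weeks, against 0.482 to 0.599 in controls. This ratio was looked at after the values were known, and no test was run on it.

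Ahcy (ENSMUSG00000027597.16), the only enzyme that splits S-adenosylhomocysteine, stood at 81.5, 49.5 and 75.1 CPM in NICD1/Akt livers of 3 weeks, against 200.5, 236 and 189 CPM in controls (log2 fold change -1.48, SE 0.19, adjusted p = 0.000161). At 2 weeks it stood at 496, 600.0 and 257 CPM in NICD1/Akt livers, against 567, 579 and 454 CPM in controls (log2 fold change -0.24, SE 0.33, adjusted p = 0.737). The groups overlapped at 2 weeks and were apart at 3 weeks, and both groups were lower at 3 than at 2 weeks. In NICD1/Akt livers the level at 3 weeks was 6.56-fold lower than at 2 weeks (adjusted p = 0.000323), and in controls it was 2.56-fold lower (adjusted p = 0.00435).

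Remethylation of homocysteine is carried by the betaine-dependent enzyme and its paralog, which are most abundant in liver and kidney. It is also carried by the folate- and cobalamin-dependent methionine synthase, which is present in most cells. Bhmt (ENSMUSG00000074768.7), the betaine-homocysteine methyltransferase, stood at 401, 411 and 415 CPM in NICD1/Akt livers of 3 weeks, against 1740, 1519 and 1599 CPM in controls. It had the smallest adjusted p of the 10 genes (log2 fold change -1.87, SE 0.12, adjusted p = 4.1e-06). The 3 NICD1/Akt libraries of 3 weeks lay close together and below all other 9 libraries. At 2 weeks Bhmt stood at 720, 993 and 585 CPM in NICD1/Akt livers, against 1892, 2149 and 884 CPM in controls. Only control library 32 overlapped with the NICD1/Akt livers (log2 fold change -1.09, SE 0.40, unadjusted p = 0.0300, adjusted p = 0.520), and without it the log2 fold change was -1.40 (SE 0.32, unadjusted p = 0.00484, adjusted p = 0.195). Against the 5 controls of both stages that remain without library 32, Bhmt was called lower in NICD1/Akt livers of 2 weeks (-1.20, adjusted p = 0.0207). That set, added after seeing the data, includes the controls of 3 weeks, which also differ from these livers in stage and in Ddx3y. The fits within the stage did not call Bhmt.

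Bhmt2 (ENSMUSG00000042118.8), which uses S-methylmethionine as the methyl donor, lies beside Bhmt on chromosome 13, and reads that match both paralogs could be split between them or lost, so their values are not fully separate. It stood at 94.4, 70.6 and 111 CPM in NICD1/Akt livers of 3 weeks, against 302, 283 and 302 CPM in controls, with wide separation (log2 fold change -1.56, SE 0.16, adjusted p = 5.69e-05). At 2 weeks it stood at 226, 252 and 116 CPM in NICD1/Akt livers, against 321, 346 and 204 CPM in controls, again with overlap only through library 32 (log2 fold change -0.54, SE 0.34, adjusted p = 0.526).

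Mtr (ENSMUSG00000021311.10), the methionine synthase, had the lowest level per kilobase of the 10 genes. It stood at 16.9, 17.0 and 14.8 CPM in NICD1/Akt livers of 3 weeks, against 13, 13 and 11.2 CPM in controls. It was higher in all 3 NICD1/Akt libraries (log2 fold change 0.51, SE 0.12, adjusted p = 0.00476). As with Mat2b, the controls of 3 weeks stood below all other libraries: Mtr stood at 16.1, 21.7 and 16.9 CPM in NICD1/Akt livers and at 18.1, 17.6 and 18.6 CPM in controls at 2 weeks. Controls of 3 weeks were lower than those of 2 weeks (log2 difference -0.55, SE 0.13, adjusted p = 0.00873), while NICD1/Akt livers of 3 weeks were not called against those of 2 weeks (-0.17, SE 0.13, adjusted p = 0.344). Against all 6 controls the log2 fold change of Mtr was 0.09 (adjusted p = 0.716), and against 5 without library 32 it was 0.29 (adjusted p = 0.183). There were 23.7 to 28.1 reads of Bhmt per read of Mtr in NICD1/Akt livers at 3 weeks, against 117 to 143 in controls. Since Bhmt was lower and Mtr higher, this ratio must differ more than either gene alone, and no test was run on it.

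In transsulfuration, the entry and the exit enzyme differed in size of change. Cbs (ENSMUSG00000024039.16), which joins homocysteine to serine, stood at 441, 453 and 477 CPM in NICD1/Akt livers of 3 weeks, against 679, 672 and 599 CPM in controls. The groups were apart but the fall was the smallest of the 7 (log2 fold change -0.39, SE 0.11, adjusted p = 0.0118), and it turned to 0.32 with library size only as scaling (adjusted p = 0.0253) and was not called with upper quartile factors (-0.23, adjusted p = 0.0888) or without control library 10 (-0.37, adjusted p = 0.0534). At 2 weeks Cbs stood at 691, 826 and 547 CPM in NICD1/Akt livers, against 740, 700.0 and 631 CPM in controls (log2 fold change 0.00, SE 0.22, adjusted p = 0.998).

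Cth (ENSMUSG00000028179.13), which releases cysteine from cystathionine, stood at 25.8, 15.9 and 24.6 CPM in NICD1/Akt livers of 3 weeks, against 96.3, 107 and 78.6 CPM in controls (log2 fold change -1.97, SE 0.20, adjusted p = 4.29e-05). It had the largest standard error of the 10 genes at 2 weeks, with 172, 353 and 118 CPM in NICD1/Akt livers, against 340, 305 and 209 CPM in controls (log2 fold change -0.41, SE 0.42, adjusted p = 0.659). NICD1/Akt library 34 lay above all controls and library 35 below all of them. At 3 weeks there were 0.0351 to 0.0585 reads of Cth per read of Cbs in NICD1/Akt livers, against 0.131 to 0.160 in controls. At 2 weeks the ratio was 0.215 to 0.427 in NICD1/Akt livers, against 0.331 to 0.460 in controls.

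At 2 weeks as a whole, 0 of the 10 genes were called in edgeR, as were 0.0% of the 13041 genes tested, and 1 gene, Bhmt, had an unadjusted p under 0.05 (3.69% of all genes had one and were lower). None of DESeq2, limma-voom and the likelihood ratio test of edgeR called any of the 10. All 10 genes overlapped between the groups, while 8.53% of all genes were lower without overlap. Without control library 32, Gnmt, Bhmt and Bhmt2 were lower without overlap, as were 21.0% of all genes. The median log2 fold change of the 10 genes was -0.13 with library 32 and -0.25 without it. The standard errors at 2 weeks were 0.13 to 0.42, so small differences were not detectable at that stage. A log2 fold change as large as that of Bhmt (-1.09, or -1.40 without library 32) was not called either. The lack of calls at 2 weeks therefore does not show a lack of change.

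**Figure D3:**
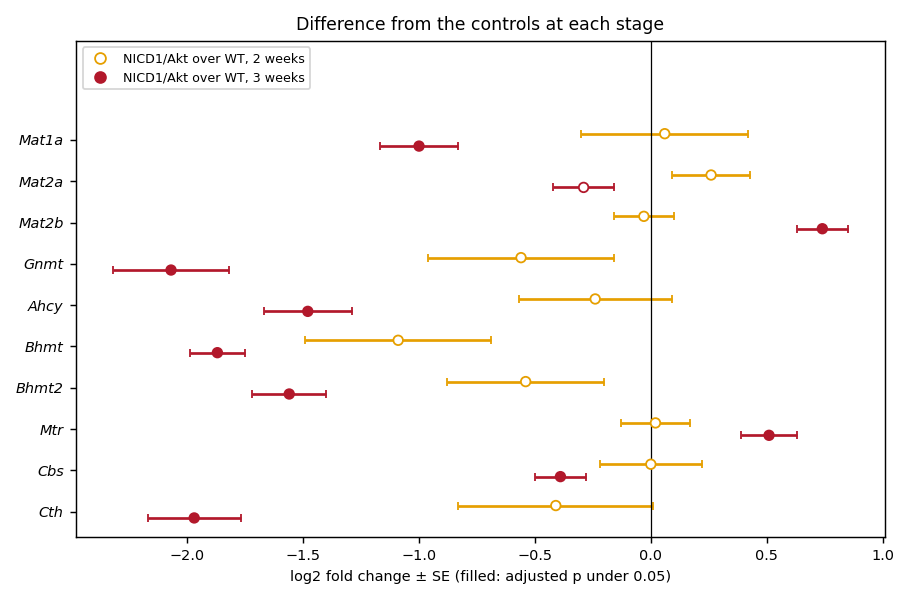
log2 fold change of NICD1/Akt over control livers (x axis, bars are standard errors) for the 10 genes at 2 weeks (orange) and 3 weeks (red), with filled points for an adjusted p under 0.05. At 3 weeks 9 of 10 points are filled, from -2.07 for Gnmt to 0.74 for Mat2b, and at 2 weeks none is.

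Within NICD1/Akt livers, 7 of the 10 genes were lower at 3 than at 2 weeks and none was called higher, where 17.4% of the 13829 genes in the fit of all libraries were called lower and 11.1% higher. The falls ran from Cth, 9.68-fold (log2 difference -3.28, SE 0.39, adjusted p = 0.000494), over Ahcy, Gnmt (3.63-fold), Mat1a (3.12-fold), Bhmt2 (2.15-fold) and Bhmt (1.87-fold) to Cbs (1.51-fold). Those of Bhmt, Bhmt2 and Cbs were no longer called without NICD1/Akt library 33, 34 or 1, nor without library 2, and those of Bhmt and Cbs were also lost without library 3 or with library size only as scaling. Mat2a, Mat2b and Mtr were not called, with log2 differences of 0.33, 0.01 and -0.17, although Mat2a was called higher without library 35 (0.48, adjusted p = 0.0231). Within controls, 4 genes were lower at 3 than at 2 weeks (Mat2b, Ahcy, Cth and Mtr) and 1, Mat2a, was higher, where 20.4% of genes were called lower and 17.4% higher. These 5 calls were kept without library 32, without any other single control and with library size only. Cth was 3.02-fold lower in controls of 3 weeks than in those of 2 weeks (adjusted p = 0.00629), whereas the log2 differences of Gnmt, Bhmt, Bhmt2 and Cbs in controls were -0.23 to 0.03 (adjusted p from 0.627 to 0.966).

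The effect of NICD1/Akt at 3 weeks differed from that at 2 weeks for 6 of the 10 genes, and 30.8% of all genes passed this test. The difference was negative for Cth (-1.68, adjusted p = 0.0322), Gnmt (-1.63, adjusted p = 0.0346), Ahcy (-1.36, adjusted p = 0.0300), Mat1a (-1.18, adjusted p = 0.0423) and Mat2a (-0.66, adjusted p = 0.0432) and positive for Mat2b (0.66, adjusted p = 0.0190). It was not called for Bhmt2 (-1.13, adjusted p = 0.0548), Bhmt (-0.88, adjusted p = 0.124), Cbs (-0.50, adjusted p = 0.109) or Mtr (0.38, adjusted p = 0.135). The 5 negative calls lie close to the threshold. None of them was kept when control library 32, 10 or 11 or library 3 of NICD1/Akt livers was left out. Leaving out library 33, 34 or 2 of NICD1/Akt livers kept 1, and leaving out library 1 of NICD1/Akt livers or library 30 or 12 of controls kept 2. The call of Mat2b was kept each time.

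Ordered by level per kilobase of exon, controls of 3 weeks had Gnmt first (1070 CPM per kb), then Mat1a (706), Bhmt (281), Bhmt2 (120), Cbs (86.8), Ahcy (74.3), Mat2a (38.6), Cth (33.7), Mat2b (4.01) and Mtr (1.45). Cbs and Ahcy, and Mat2a and Cth, overlapped as neighbours in that order, and the other neighbours were apart. In NICD1/Akt livers of 3 weeks Mat1a (324 CPM per kb) and Gnmt (235) overlapped at the top, Cbs (61.0) stood above Bhmt2 (37.4), and Mat2a (29.0) lay between Bhmt2 and Ahcy (24.5) and overlapped with both. Cth (7.92) had come down to the range of Mat2b (6.18), and Mtr was last (1.90).

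Since hepatocyte markers fell as well, each gene was also set against the mean log2 level of the 10 hepatocyte markers in the same library, which was 1.68 lower in NICD1/Akt livers than in controls at 3 weeks. On that scale Bhmt2 and Ahcy differed by -0.02 and 0.06 between NICD1/Akt livers and controls, Gnmt, Cth and Bhmt by -0.53, -0.43 and -0.30, and Mat1a by 0.55. Cbs, Mat2a, Mtr and Mat2b differed by 1.18, 1.26, 2.07 and 2.32. The SDs of these relative levels were 0.08 to 0.52 in NICD1/Akt livers and 0.06 to 0.23 in controls (n = 3 each). These are descriptions without a test, and the part of the cell mix in the fold changes was not tested.

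The genes that adjoin the cycle were taken from 9 lists with 47 genes, of which 46 could be tested at 3 weeks. Of these 29 were lower and 4 higher in NICD1/Akt livers at 3 weeks (33.1% and 38.9% of all genes), and at 2 weeks none was called, with 4 at an unadjusted p under 0.05. The routes that supply methyl groups to homocysteine were lower. In choline and betaine oxidation 4 of 5 genes fell, among them Dmgdh (log2 fold change -2.08, SE 0.17) and Sardh (-1.69, SE 0.18), which oxidise the dimethylglycine left by Bhmt and the sarcosine left by Gnmt, and Aldh7a1 (-1.44, SE 0.16), a dehydrogenase of betaine aldehyde. In the folate and cobalamin arm 3 of 4 tested genes fell: Mmadhc (-0.85, SE 0.09) and Mmachc (-0.69, SE 0.11), which process cobalamin, and Mtrr (-0.49, SE 0.14), which reactivates methionine synthase.

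Among 8 methyltransferases of small molecules 6 were lower and 1 higher. Gamt, the last enzyme of creatine synthesis, fell by 1.59 on the log2 scale (SE 0.19) and Pemt, which makes phosphatidylcholine, by 1.51 (SE 0.20). Of 4 genes of adenosine disposal and Ahcy-like proteins, Adk, adenosine kinase, was lower (-1.13, SE 0.11), while the Ahcy-like genes Ahcyl2 (-0.43, adjusted p = 0.0626) and Ahcyl1 (-0.16, adjusted p = 0.139) were not called. Methionine salvage and polyamine synthesis went both ways, with 2 of 9 genes higher and 2 lower: Enoph1 of the salvage route was 1.47 higher (SE 0.21), Amd1, which decarboxylates S-adenosylmethionine, was 0.50 higher (SE 0.10), and Srm, spermidine synthase, was 0.94 lower on the log2 scale (SE 0.17).

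Downstream of cysteine every testable gene of 3 lists was lower at 3 weeks with TMM scaling. Library size only as scaling moved the median of all genes up by 0.705 on the log2 scale, so the smaller falls depend on the scaling. In cysteine breakdown and taurine synthesis all 5 fell, led by Cdo1, cysteine dioxygenase, with 606 ± 77.8 CPM in NICD1/Akt livers against 2352 ± 6.72 CPM in controls (SD, n = 3 each), Suox, sulfite oxidase (-1.42, SE 0.13), and Csad (-1.17, SE 0.19). All 4 genes of sulfide and persulfide handling fell, among them the sulfide oxidising gene Sqor (-1.59, SE 0.13), the persulfide dioxygenase gene Ethe1 (-1.50, SE 0.11) and the sulfurtransferase gene Mpst (-1.13, SE 0.12). The 3 genes of glutathione synthesis fell as well: Gclc (-1.63, SE 0.29) and Gclm (-0.61, SE 0.10), the subunits of glutamate-cysteine ligase, and Gss, glutathione synthetase (-0.87, SE 0.09). For Gclc the controls again differed by stage, with 257 ± 60.0 CPM in NICD1/Akt livers of 3 weeks against 863 ± 309 CPM in controls of that stage, and 245 ± 58.3 CPM in NICD1/Akt livers of 2 weeks against 260.5 ± 16.5 CPM in controls of 2 weeks (SD, n = 3 each). Among 4 genes of RNA control and transport, Elavl1, whose protein HuR binds Mat2a RNA in rodent and human cells, was lower (-0.54, SE 0.08). Hnrnpd, which encodes the RNA-binding protein AUF1, was higher (0.59, SE 0.11). Mettl16, known from human cells to methylate MAT2A RNA, was not called (0.24, SE 0.14, adjusted p = 0.153).

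With library size only as scaling the 46 genes divided into 19 lower and 14 higher, and against all 6 controls into 23 lower and 2 higher. Within controls, 9 of the 46 genes were called higher at 3 than at 2 weeks and 3 lower, where 17.4% of all genes were called higher and 20.4% lower. Besides Gclc, the higher ones include Srm, Mtrr, Elavl1 and Gss (log2 differences 1.28, 1.11, 0.96 and 0.79). In NICD1/Akt livers of 3 weeks the means of Srm, Mtrr and Elavl1 lay above those of both groups of 2 weeks. Their lower calls are thus relative to the higher controls of 3 weeks.

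**Figure D4:**
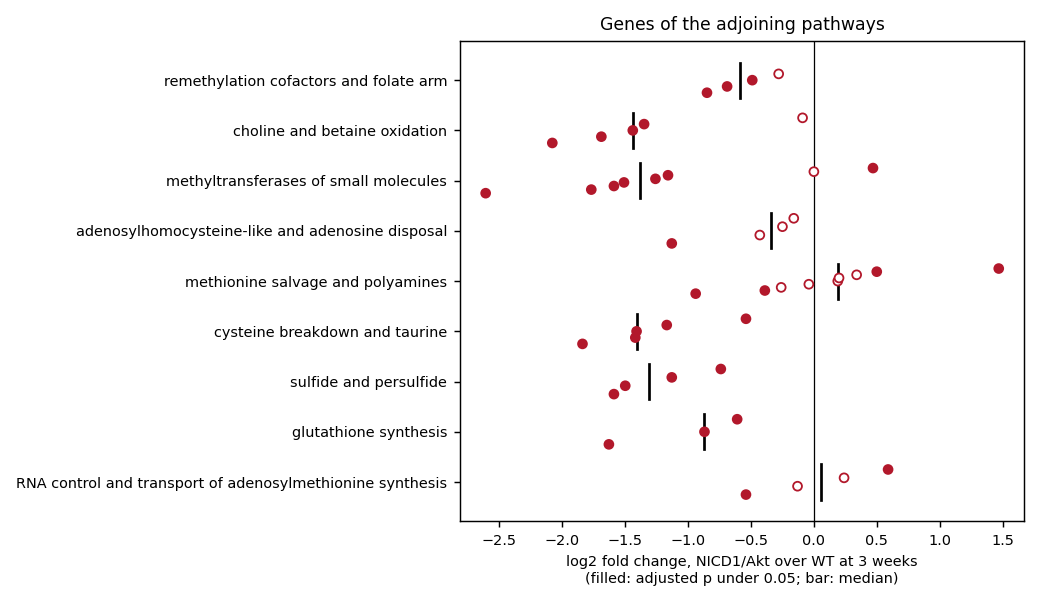
log2 fold change of NICD1/Akt over control livers at 3 weeks (x axis) for the 46 tested genes of the 9 adjoining lists (a line of points for each list), each point a gene, filled for an adjusted p under 0.05, with the median of each list as a bar. All genes of the cysteine, sulfide and glutathione lists lie left of 0 and are filled, and the genes of methionine salvage and polyamines lie on both sides.

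The genes whose pattern over the 12 libraries was most like that of Mat1a were sought among 8758 genes with a mean of at least 10 CPM, by the SD of the log2 difference between the genes. Among the nearest were Abcg5, a sterol transporter gene (0.166), Iah1 (0.176), Oit3 (0.181) and Pnp, purine nucleoside phosphorylase (0.192). For Mat2a the 5 nearest were Gm49336 (0.106), Wdr75 (0.130), Jak2, a cytokine receptor kinase (0.130), Nup153, a nuclear pore protein (0.131), and Usp37 (0.132). Mat1a and Mat2a differed from each other by an SD of 1.01, and of the other members Bhmt2 (0.441), Cbs (0.477) and Gnmt (0.498) were closest to Mat1a. The 12 libraries share their group structure, so these are descriptions.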

How the data were processed

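Liver RNA was sequenced from stranded poly(A) libraries. The deposited values are raw counts per gene, in whole numbers, with a table per stage. For alignment and counting the study's methods give mm10 with STAR and HTSeq. The submitters' notes give GRCm39, Subread 2.0.6 and STAR 2.7 instead. It could not be settled which route was used, so no coordinates were taken from the tables. Symbols were matched by ID for 21573 of 21807 gene IDs. Groups were taken from the sample labels.

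Normalization and testing used edgeR 4.0.16 in R 4.3.3 (TMM scaling, filterByExpr defaults, quasi-likelihood test, Benjamini-Hochberg adjustment over all genes tested, threshold 0.05). The 6 libraries of a stage were fitted separately from those of the other. Differences between stages, and 3 against 2 weeks within a genotype, used 1 fit over 12 libraries with 4 group means. Count ratios within a library used a pseudocount of 0.5 and exact permutation tests. Exon lengths were from GENCODE M21. Motifs were searched in RefSeq promoters of GRCm38.p6.

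The 10 genes, the marker and pathway lists and the tests were chosen with earlier results of these data known. Named besides the 10 genes are up to 3 genes of each pathway list, those of smallest adjusted p in the comparison of 3 weeks, and the 5 genes nearest in pattern to Mat1a and to Mat2a. Of the genes this rule gives, 2 are not reported here. The fits were tested on simulated counts. Chi-square per gene between replicates was 4.96 to 136, above sampling noise, so no pair was merged as repeats of 1 library. This does not show that libraries stem from separate animals. Alternatives were DESeq2 1.42.0, limma-voom (limma 3.58.1), the likelihood ratio test of edgeR, other scaling, filters and thresholds, other sets of controls, and leaving out each library. The use of 5 controls without library 32, and the alternatives for 3 against 2 weeks within a genotype, were added after seeing the data.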

Additional observations from a re-analysis of the deposited data

Results flagged for a closer look

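For 6 of the 10 genes the effect of NICD1/Akt differed between the stages by the test of the difference itself in edgeR, given as the log2 fold change at 3 weeks minus that at 2 weeks: -1.68 for Cth, -1.63 for Gnmt, -1.36 for Ahcy, -1.18 for Mat1a, -0.66 for Mat2a and 0.66 for Mat2b. The values behind them show where the groups moved. For Mat2a and Mat2b the NICD1/Akt livers of the stages lay nearer each other (130 ± 20.9 CPM at 3 weeks and 103 ± 18.1 CPM at 2 weeks for Mat2a, 30.9 ± 0.754 and 30.6 ± 3.21 CPM for Mat2b) and not called, while the controls were called different, at 173 ± 10.1 CPM at 3 weeks and 86.9 ± 8.93 CPM at 2 weeks for Mat2a, and at 20.04 ± 2.76 and 31.4 ± 2.75 CPM for Mat2b (SD, n = 3 each). For Mat1a and Gnmt the NICD1/Akt livers differed between the stages and the controls were not called, except that library size only as scaling called Mat1a lower in controls of 3 weeks (-0.62, adjusted p = 0.0155). For Ahcy and Cth both were lower at 3 weeks. Stage cannot be told apart from the sex read from Ddx3y or from the count table.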

How the results depend on the processing

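At 3 weeks the falls of Gnmt, Bhmt, Bhmt2, Ahcy and Cth kept their call in all 17 alternatives, and the higher levels of Mat2b and Mtr lost theirs only against controls of both stages. Of the 10 genes, library size only called 4 higher in place of 2 (Mat2a 0.42, Cbs 0.32), and all 6 controls, or 5 without library 32, called 0 higher (Mat2a 0.05 with 5). Leaving out a library gave 6 to 8 lower and 2 higher. For the 46 adjoining genes, library size only gave 19 lower and 14 higher, and all 6 controls gave 2 higher. Library size only put 87.6% of all calls at 3 weeks on the higher side, upper quartile factors 62.7% and TMM 54.1%.

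At 2 weeks, where no gene was called, signs turned for Mat2b with library size only (0.21) and upper quartile factors (0.01), for Cbs in the fit of 12 libraries (-0.01), and against all 6 controls for Mat2a (-0.31), Mat2b (0.27), Ahcy (0.29) and Cth (0.18). Against 5 controls without library 32 the log2 fold changes were -0.39, 0.30, 0.36 and 0.21 in the same order, and 1 gene, Bhmt, was called lower. With each library left out in turn, Mat1a ranged from -0.15 to 0.25, Mat2b from -0.14 to 0.03, Ahcy from -0.50 to 0.03, Cbs from -0.15 to 0.12, Mtr from -0.12 to 0.10, the log2 ratio of Mat1a to Mat2a from -0.46 to 0.20 and that of Mat1a to Mat2b from -0.11 to 0.42.

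For the difference between stages, 5 genes were called lower and 1 higher. Library size only gave 0 lower and 2 higher, Mat2b (1.24) and Mtr (1.01), and turned Cbs to 0.14 without a call, upper quartile factors 3 and 2, no filter on low counts 3 lower, an adjusted p under 0.01 gave 0 and 0, and leaving out a library 0 to 6 lower.

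For 3 against 2 weeks in NICD1/Akt livers, leaving out a library gave 4 to 7 lower and 0 to 1 higher, and library size only called 1 higher (Mat2a) and turned Mtr to 0.28, while Mat2b ranged from -0.04 to 0.10. In controls, library size only called Mat1a lower (-0.62, adjusted p = 0.0155 in edgeR, against 0.0735 to 0.464 in the other 7 alternatives) and turned Bhmt2 to -0.12, and leaving out a library gave -0.34 to 0.22 for Bhmt and -0.19 to 0.18 for Bhmt2.

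No paired analysis was possible because the groups share no replicate number. The causes of these changes were not tested. With 3 libraries a group, an exact test of a ratio cannot go below p = 0.1, and Mtr and Mat2b rest on the fewest reads (134 to 461 and 199 to 871 per library).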
